A study of Homo sapiens with 9 samples.

Results

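Integrins are the cell surface receptors that hold a cell to the matrix around it, and focal adhesions are the protein assemblies that tie their inner ends to actin. The genes described here are 39 named members of that system, 17 integrin subunits and 22 focal adhesion proteins, taken by symbol from the 60664 genes listed in the count tables. All 39 were found there by Ensembl ID, and 35 of them were among the 18264 genes with enough counts to test. The cells were MDA-MB-231, a human breast cancer line with mesenchymal features, in 9 samples that fall into 3 groups of 3. SC cells carried a non-targeting scramble hairpin and were held at 0.77 cP, the viscosity of plain medium, or at 8 cP, in medium thickened with methylcellulose. Cells of the third group, shTRPV4, carried a hairpin against TRPV4, a calcium-permeable channel opened by mechanical and osmotic stimuli, and were held at 8 cP. All 9 samples were taken on day 6, and in all of them the hairpin came from a lentivirus that integrates stably. The study's methods name 1 TRPV4 hairpin for experiments of this kind, and a further TRPV4 hairpin that was used for a different figure. Cells with shTRPV4 at 0.77 cP were not analysed here. The reduction of TRPV4 and any other action of that hairpin or line therefore cannot be told apart, and the effect of the hairpin at the lower viscosity has no value here.

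An integrin is a dimer of an alpha and a beta subunit, and the combination sets the ligand: beta-1 joins many alphas to bind collagen, laminin or fibronectin, beta-4 joins alpha-6 in hemidesmosomes, and alpha-V with beta-3, beta-5, beta-6 or beta-8 binds ligands that carry the RGD motif. Talin and kindlin bind the beta tail and switch the receptor on, vinculin, alpha-actinin, filamin and zyxin link the plaque to actin, and FAK, Src, paxillin and p130Cas carry the signal inward. In invasive breast cancer cells these assemblies are known for transmitting traction during migration. All values below are RNA levels and say nothing of protein or of receptors at the surface.

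Of the 39 members, 29 had an entry in a RefSeq table of promoters (GRCh38.p14), whose 250 bases before each gene's start were searched on both strands for 3 motifs. The letters GGAATG, the core bound by TEAD factors, which act with YAP and TAZ, were in 4 of the 29 members and in 11.9% of all 27303 promoters in the table. The AP-1 letters TGANTCA were in 2 members, ACTN4 and BCAR1, and in 6.60% of all promoters, and the CArG box of serum response factor was in 2, FLNA and ITGB6, and in 1.14%. The members' promoters had a median GC content of 72.8%, against 58.0% for all promoters. The 4 with the TEAD letters are printed below in the direction of the gene, because they belong to members whose RNA differed between the groups, ITGB1, ITGA5 and ITGA10 downward and NEXN upward in shTRPV4 cells. Capitals mark the TEAD letters, which read CATTCC where they lie on the other strand. Such a match is a description of these letters and not a site of binding. The share in members was near that of all promoters for the TEAD letters (13.8%) and the AP-1 letters (6.90%). For the CArG box it was 6.90%, which is only 2 members, against 1.14%.
ITGB1, GRCh38.p14, chr10:32958231-32958480, minus strand: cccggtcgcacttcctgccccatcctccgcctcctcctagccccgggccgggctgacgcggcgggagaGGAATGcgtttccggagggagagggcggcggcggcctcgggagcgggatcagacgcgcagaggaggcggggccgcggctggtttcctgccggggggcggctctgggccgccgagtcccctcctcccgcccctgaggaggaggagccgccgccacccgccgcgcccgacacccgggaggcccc
ITGA5, GRCh38.p14, chr12:54419267-54419516, minus strand: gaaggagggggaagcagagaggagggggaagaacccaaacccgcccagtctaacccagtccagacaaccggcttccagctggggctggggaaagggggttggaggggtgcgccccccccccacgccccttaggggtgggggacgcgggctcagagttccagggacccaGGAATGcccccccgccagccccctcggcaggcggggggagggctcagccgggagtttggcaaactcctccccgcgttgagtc
ITGA10, GRCh38.p14, chr1:145910051-145910300, minus strand: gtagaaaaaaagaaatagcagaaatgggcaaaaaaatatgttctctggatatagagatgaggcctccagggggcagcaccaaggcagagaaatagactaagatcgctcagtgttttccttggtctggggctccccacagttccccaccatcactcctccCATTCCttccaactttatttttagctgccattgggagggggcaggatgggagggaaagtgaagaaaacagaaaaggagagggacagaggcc
NEXN, GRCh38.p14, chr1:77888374-77888623, plus strand: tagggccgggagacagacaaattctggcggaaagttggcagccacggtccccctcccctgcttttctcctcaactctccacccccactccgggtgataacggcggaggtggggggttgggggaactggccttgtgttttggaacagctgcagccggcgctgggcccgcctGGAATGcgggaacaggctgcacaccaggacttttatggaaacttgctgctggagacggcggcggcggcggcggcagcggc

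The 9 samples held between 64571681 and 103518036 counts. TRPV4 itself was rare, with 40, 28 and 54 counts in SC cells at 0.77 cP, 64, 45 and 24 in SC cells at 8 cP, and 7, 1 and 13 in shTRPV4 cells. All 3 shTRPV4 samples lay below all 6 SC samples, and the log2 fold change at 8 cP was -2.51 (SE 0.49, by edgeR's quasi-likelihood test, adjusted after Benjamini-Hochberg over all genes tested, adjusted p = 0.00219). It ranged from -3.27 to -2.06 when each sample was left out in turn. The 6 genes taken as markers of this line were high in every sample (VIM, for example, between 754 and 1063 counts per 1000000 counts of the library, CPM), and ESR1, PGR, CDH1 and GRHL2 were between 0 and 0.133 CPM, while EPCAM stood at 16.9 to 19.4. Of the leukocyte markers, PTPRC reached 0.176 CPM, although CD14 stood at 3.02 to 6.42. Fibroblast and endothelial markers were mixed, with DCN and CDH5 at or near 0 in every sample, COL1A2 at up to 33.1 CPM and PECAM1 at 1.98 to 6.22. The labels number the samples of a group 1 to 3 without saying whether they were separate cultures, so the p-values below measure the spread between these samples. In bulk RNA, fewer cells with a transcript and less of it per cell cannot be told apart.

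On a scale that allows genes to be set side by side, CPM per kilobase of annotated exon, the leading integrin RNAs in SC cells at 8 cP were ITGA3 at 222 ± 1.72 (SD, n = 3), the alpha subunit of the laminin receptor alpha-3 beta-1, and ITGB1 at 132 ± 1.15. They were followed by ITGA6 (62.5 ± 1.54), ITGB4 (48.2 ± 4.04) and ITGB5 (43.1 ± 1.06). The order of ITGB4 and ITGB5 was not clear of the spread, since the ranges of their samples touched. ITGA5 (21.6 ± 1.48) and ITGA2 (20.1 ± 1.48) came next and also overlapped, and ITGAV stood at 5.92 ± 0.225. The means of the other integrin subunits among the members were 1.51 or lower. ITGAE, an integrin subunit that is not a member, stood at 5.07 ± 0.402. Among the focal adhesion proteins, the actin cross-linkers FLNA (292 ± 5.11) and ACTN4 (266 ± 3.82) were far above TLN1, the main talin (84.5 ± 2.09), which was followed by ACTN1 (44.2 ± 1.09) and ZYX (43.6 ± 2.42), 2 members that overlapped. In shTRPV4 cells the level of ITGB1 was 63.5 ± 1.80 and that of ITGA6 65.7 ± 3.21, so that ITGB1 no longer stood above ITGA6 on this scale. With the length of the longest transcript in place of all exon bases ITGB1 stayed higher, at 165 against 75.5. Other places in the order also hung on the length used. In SC cells at 8 cP that length put ACTN1 (116) above TLN1 (96.8), and ITGB5 (63.3) above ITGB4 (55.2).

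**Figure D1:**
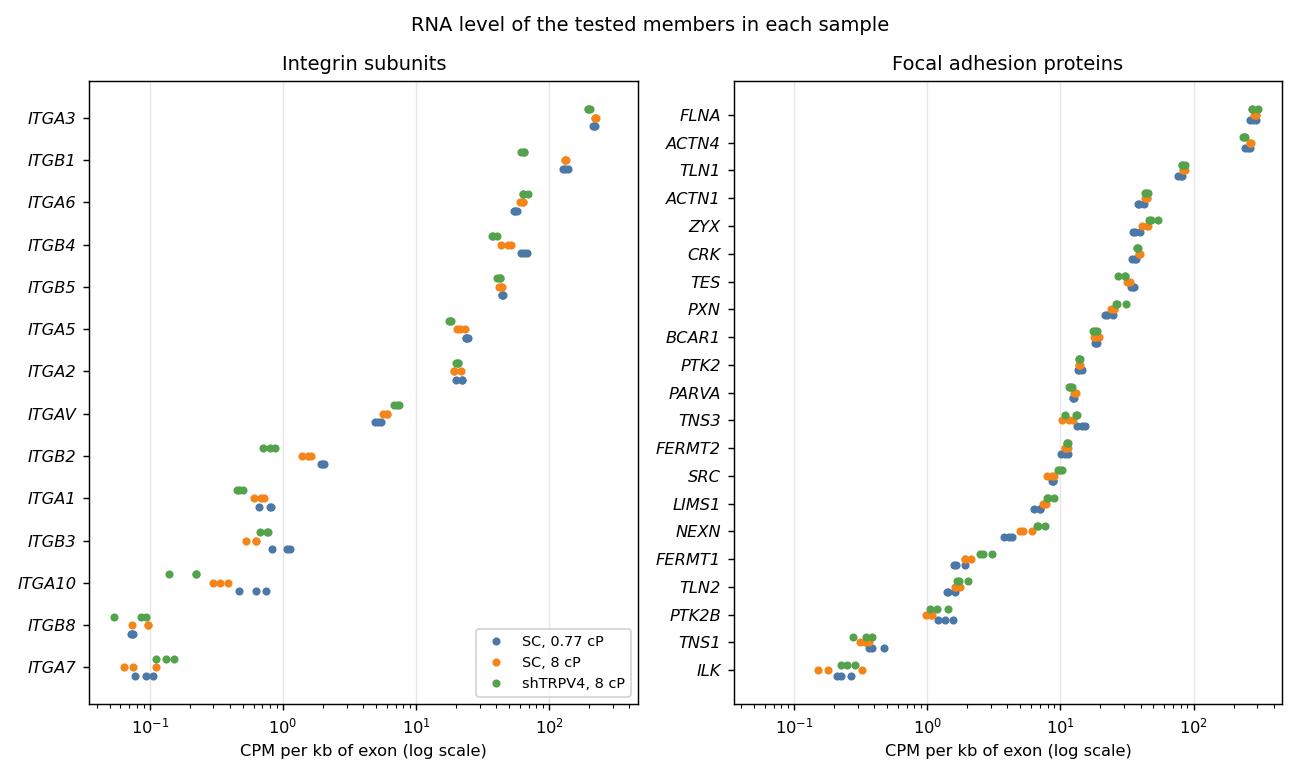
RNA level of the 35 tested members in each sample, in CPM per kilobase of exon on a log axis, with integrin subunits on the left and focal adhesion proteins on the right, ordered by their mean in SC cells at 8 cP, and with 1 point per sample coloured by group. Levels span from under 0.1 to about 300, and the 3 shTRPV4 points of ITGB1 stand apart from its 6 SC points.

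Higher viscosity in SC cells went with changes in 12 of the 35 members (34.3%), where 19.3% of all genes tested passed the same threshold of an adjusted p under 0.05. Of these 12, 5 were higher at 8 cP (9.57% of all genes were) and 7 were lower (9.69%). ITGB4, ITGB3, ITGB2, ITGA10 and ITGA5, all integrin subunits, were lower, as were TNS3 and PTK2B, and the members that were higher were NEXN, ZYX, ITGAV, ITGA6 and CRK. The differences were small: of the members that passed, only ITGA10 and ITGB3 differed by 0.5 or more on the log2 scale, and 3.82% of all genes tested met both criteria. The median of all 35 was 0.00067, and their median absolute change was 0.15, as it was over all genes tested. The count depended on single samples. It fell to 4 without replicate 1 of SC at 0.77 cP, to 5 without replicate 3 of SC at 8 cP and to 7 without replicate 2 of SC at 0.77 cP, and the count over all genes fell likewise, from 3518 to 1409, 1418 and 1927. In contrast, ITGB2, ITGB3, ITGB4 and NEXN passed with any of the 9 samples left out.

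With the TRPV4 hairpin at 8 cP, 12 members again passed (34.3%), against 20.0% of all genes tested, and the largest change by far in relation to its error was a loss of ITGB1. Of the 12, 8 were lower than in SC cells at 8 cP (11.0% of all genes were) and 4 were higher (9.02%). The median absolute log2 fold change was 0.163 over the tested members and 0.148 over all genes tested. Integrin subunits made up most of the lower ones, namely ITGB1, ITGB2, ITGB4, ITGA10, ITGA1, ITGA5 and ITGA3, beside ACTN4, and the higher ones were FERMT1, NEXN, ITGAV and SRC. ITGB1, ITGB2, ITGA10 and ITGA1 passed with at least 0.5 on the log2 scale, as 5.25% of all genes did. Split by class, 8 of 14 tested integrin subunits passed (7 lower) and 4 of 21 focal adhesion proteins (1 lower), the latter share of 19.0% being close to the background. Calls for ACTN4 and ITGA3 were lost on leaving out 3 and 2 of the single samples respectively, and the other 10 held each time.

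Set against SC cells at 0.77 cP, shTRPV4 cells at 8 cP differed in both hairpin and viscosity. Here 20 members passed (57.1%), against 42.4% of all genes tested, 10 of them higher (20.4% of all genes were) and 10 lower (22.0%). Of 14 integrin subunits, 8 were lower and only ITGAV and ITGA6 higher, while of 21 focal adhesion proteins 8 were higher (TLN2, FERMT1, ACTN1, LIMS1, SRC, PXN, ZYX and NEXN) and 2 lower (TNS3 and TES). With a log2 fold change of at least 0.5 required as well, 7 members and 13.3% of all genes passed. The median absolute log2 fold change was 0.234 over the tested members and 0.231 over all genes tested. Calls for TNS3, ACTN1 and ITGA3 were lost on leaving out 6, 3 and 2 of the single samples respectively. The 3 comparisons share samples, so their values are given side by side and are not independent of each other.

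**Figure D2:**
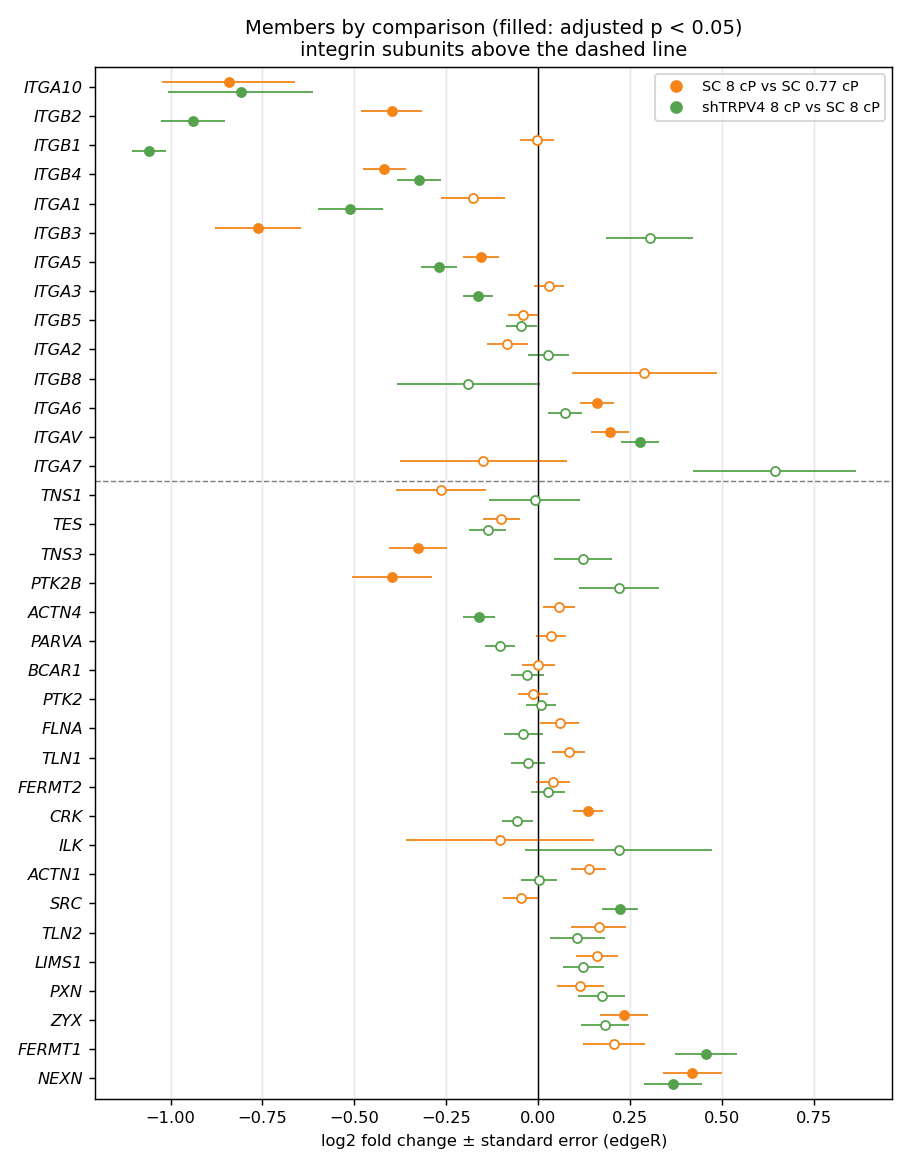
Log2 fold change with its standard error for the 35 tested members, in orange for SC cells at 8 cP against 0.77 cP and in green for shTRPV4 against SC cells at 8 cP, filled where the adjusted p is under 0.05 and with integrin subunits above the dashed line. ITGB1 lies at 0 for viscosity and at -1.06 for the hairpin, and both comparisons share the SC samples at 8 cP.

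ITGB1 encodes the beta-1 subunit shared by the collagen, laminin and fibronectin receptors. The gene lies on chromosome 10 (32887273 to 33005792, minus strand, GRCh38 in GENCODE 44), and the printed promoter window lies within this span. Its RNA stood at 1905, 2029 and 1857 CPM in SC cells at 0.77 cP, at 1918, 1946 and 1917 in SC cells at 8 cP, and at 894, 943 and 935 in shTRPV4 cells. The SC groups overlapped fully, and every shTRPV4 sample was below every SC sample by a wide margin. With viscosity the log2 fold change was -0.0023 (SE 0.0458, adjusted p = 0.978). With the hairpin at 8 cP it was -1.06 (SE 0.0463, adjusted p = 2.6e-09 by edgeR), a fold of 0.480, and against SC at 0.77 cP it was also -1.06 (adjusted p = 2.4e-10). Among all 18264 genes its p for the hairpin at 8 cP ranked 2, and only 28 genes were more abundant in CPM in SC cells at 8 cP. This fold change stayed between -1.08 and -1.04 over 15 other settings, which include leaving out each sample.

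ITGB4, the partner of alpha-6 in laminin-binding hemidesmosomes, stepped down across the groups. It measured 458, 435 and 413 CPM in SC cells at 0.77 cP, 348, 334 and 295 at 8 cP, and 252, 256 and 271 in shTRPV4 cells. No 2 of the groups overlapped. The log2 fold change was -0.42 with viscosity (SE 0.0593, adjusted p = 0.000386 by edgeR), -0.32 with the hairpin (SE 0.0593, adjusted p = 0.00127) and -0.74 against SC at 0.77 cP (SE 0.0596, adjusted p = 1.94e-07).

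ITGB2, known as the beta chain of leukocyte integrins, was scarce and followed the same order, with 14.2, 14.9 and 14.6 CPM, then 11.2, 11.9 and 10.1, then 5.13, 5.79 and 6.36. The groups were again fully apart. Its log2 fold changes were -0.40 (SE 0.0828, adjusted p = 0.00479 by edgeR), -0.94 (SE 0.0868, adjusted p = 2.77e-06) and -1.34 (SE 0.0867, adjusted p = 2.05e-08) for viscosity, the hairpin and both. The leukocyte markers PTPRC and CD3E were at 0.176 CPM or lower in all samples, and CD14 was at 3.02 to 6.42, and their part in the ITGB2 values was not tested.

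ITGB3, the beta-3 partner of alpha-V, was lower at 8 cP than at 0.77 cP in SC cells, with 7.35, 7.67 and 5.65 CPM against 4.29, 4.27 and 3.58. In shTRPV4 cells it stood at 4.62, 5.25 and 5.13, between the SC groups and overlapping neither. The change with viscosity was -0.76 (SE 0.117, adjusted p = 0.000736 by edgeR), while the hairpin gave 0.30 (SE 0.119, adjusted p = 0.0857), short of the threshold, and the difference from SC at 0.77 cP was -0.46 (SE 0.116, adjusted p = 0.00483). Of its 6829 exon bases 2266 are shared with another annotated gene on the same strand, so its counts are uncertain to that degree.

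ITGB5, which pairs with alpha-V alone, ranged from 262 to 293 CPM over the 9 samples, and its log2 fold changes of -0.04, -0.05 and -0.09 passed no test (adjusted p = 0.542, 0.496 and 0.114). ITGB8, at 0.818 to 1.47 CPM, did not pass either. ITGB6, the epithelial partner of alpha-V, had too few counts to test. They were 4 to 9 in SC cells at 0.77 cP, 2 to 6 at 8 cP and 5 to 10 in shTRPV4 cells.

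Of the alpha subunits that recognise RGD ligands, ITGA5 and ITGAV moved in opposite directions. ITGA5, the fibronectin receptor chain that pairs with beta-1, measured 176, 182 and 175 CPM in SC cells at 0.77 cP, 171, 158 and 150 at 8 cP, and 135, 130 and 132 in shTRPV4 cells. No groups overlapped. It fell by 0.15 on the log2 scale with viscosity (SE 0.0493, adjusted p = 0.039 by edgeR), a call lost on leaving out any of 6 of the 9 samples. With the hairpin it fell by 0.27 (SE 0.0494, adjusted p = 0.0013), and against SC at 0.77 cP by 0.42 (SE 0.0494, adjusted p = 7.7e-06).

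ITGAV, the alpha-V chain that joins beta-3, beta-5, beta-6 and beta-8 as well as beta-1, measured 99.96, 106 and 94.1 CPM, then 116, 109 and 118, then 144, 139 and 132. Each group lay wholly above the one before. The log2 fold changes were 0.20 (SE 0.0516, adjusted p = 0.0159 by edgeR), 0.28 (SE 0.0514, adjusted p = 0.00137) and 0.47 (SE 0.0516, adjusted p = 3.95e-06), and that with viscosity was lost on leaving out either of 2 samples.

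Among the collagen-binding alpha subunits, the abundant ITGA2 (152 to 175 CPM in all samples) passed no test, with log2 fold changes between -0.08 and 0.03, whereas the rarer ITGA1 and ITGA10 were lower in shTRPV4 cells. ITGA10, known from cartilage, measured 4.63, 3.88 and 2.92 CPM in SC cells at 0.77 cP, 2.41, 2.09 and 1.86 at 8 cP, and 1.39, 1.38 and 0.874 in shTRPV4 cells. The groups were apart. The log2 fold changes were -0.84 (SE 0.181, adjusted p = 0.0059 by edgeR), -0.81 (SE 0.198, adjusted p = 0.00938) and -1.65 (SE 0.193, adjusted p = 8.11e-06), and with viscosity and against SC at 0.77 cP no other tested member changed by more. The call with viscosity was lost without replicate 1 of SC at 0.77 cP (adjusted p = 0.0506).

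ITGA1, which prefers basement membrane collagen, measured 15.0, 14.9 and 12.3 CPM, then 12.7, 13.3 and 11.2, then 8.31, 9.21 and 8.66. The SC groups overlapped and the shTRPV4 samples were below both. With viscosity its value was -0.18 (SE 0.0875, adjusted p = 0.176 by edgeR), with the hairpin -0.51 (SE 0.0894, adjusted p = 0.000917) and against SC at 0.77 cP -0.69 (SE 0.0895, adjusted p = 2.19e-05). Exons of other genes cover 1070 of its exon bases on the same strand and 1494 on the other. ITGA11, a further collagen receptor chain, had 1 to 6 counts and ITGA4, which binds fibronectin and VCAM1, 0 or 1 count in a sample, and neither was tested.

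The abundant laminin-binding alpha subunits, ITGA3 and ITGA6, had log2 fold changes between -0.16 and 0.23 in the 3 comparisons. ITGA3 measured 2085 to 2159 CPM in SC cells at 0.77 cP, 2153 to 2184 at 8 cP and 1922 to 1969 in shTRPV4 cells. Only the shTRPV4 samples were apart, with a log2 fold change of -0.16 against SC at 8 cP (SE 0.0409, adjusted p = 0.0112 by edgeR) and of 0.03 with viscosity (adjusted p = 0.648). ITGA6 measured 366 to 384, 406 to 425 and 426 to 464 CPM, and was higher with viscosity by 0.16 (SE 0.0459, adjusted p = 0.0245), a call lost on leaving out any of 4 samples, while the hairpin gave 0.07 (adjusted p = 0.291). ITGA7, a muscle laminin receptor, was rare, at 0.955, 0.702 and 0.846 CPM in SC cells at 0.77 cP, 0.576, 1.01 and 0.683 at 8 cP, and 1.19, 1.37 and 1.01 in shTRPV4 cells. Its value with the hairpin, 0.64 (SE 0.222, adjusted p = 0.0528 by edgeR), was the highest of any tested member and just missed the threshold, which it passed in 5 of 15 other settings. With viscosity it was -0.15 (adjusted p = 0.692) and against SC at 0.77 cP 0.50 (adjusted p = 0.0864).

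**Figure D3:**
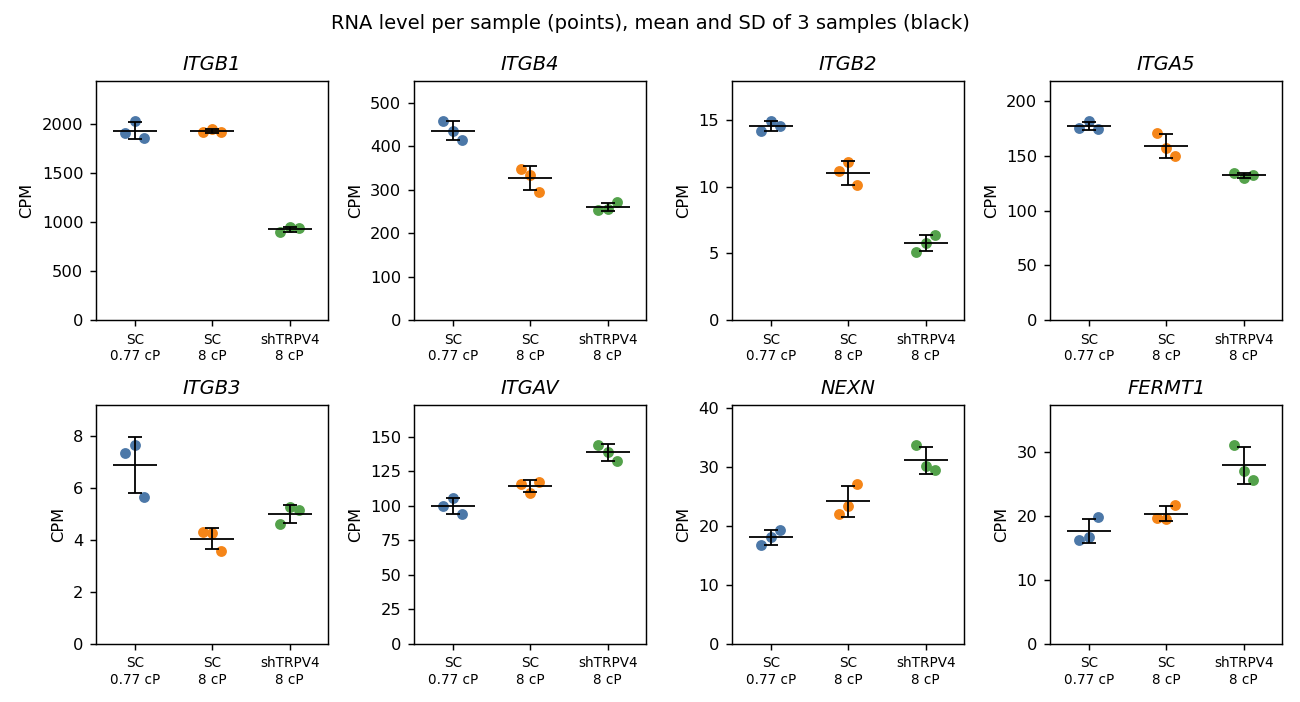
CPM of 8 members in each sample, with 1 point per sample, a black line at the mean and bars of 1 SD (n = 3), and each vertical axis starting at 0. ITGB1 differs only in shTRPV4 cells, ITGB4, ITGB2 and ITGA5 step down and ITGAV and NEXN step up across the groups, ITGB3 has its lowest mean in SC cells at 8 cP, and FERMT1 is highest in shTRPV4 cells.

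Summed per kilobase, beta subunit RNA stood lower in shTRPV4 cells than in either SC group, and alpha subunit RNA differed less. The 7 beta subunits together stood at 244 ± 8.21 CPM per kilobase (SD, n = 3) in SC cells at 0.77 cP, 226 ± 5.59 at 8 cP and 145 ± 3.07 in shTRPV4 cells, and the 10 alpha subunits at 325 ± 2.93, 333 ± 4.07 and 310 ± 3.61. The ratio of beta to alpha was 0.752 ± 0.0283, 0.679 ± 0.0126 and 0.469 ± 0.0123, and the samples of no 2 groups overlapped. These sums were given no test and cover the members only, so ITGAE is not in them. ITGB1 made up 54.2%, 58.6% and 43.7% of the beta sum in the 3 groups, and the share of ITGB5, whose own level did not pass a test, was 18.2%, 19.1% and 28.8%. ITGA3 made up 66.8%, 66.6% and 63.8% of the alpha sum, and the laminin-binding alphas as a set 84.0%, 85.4% and 85.1%. Levels per kilobase depend on the exon length assigned to each gene, and with the longest transcript the share of ITGB1 was 70.6%, 73.8% and 60.5%.

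**Figure D4:**
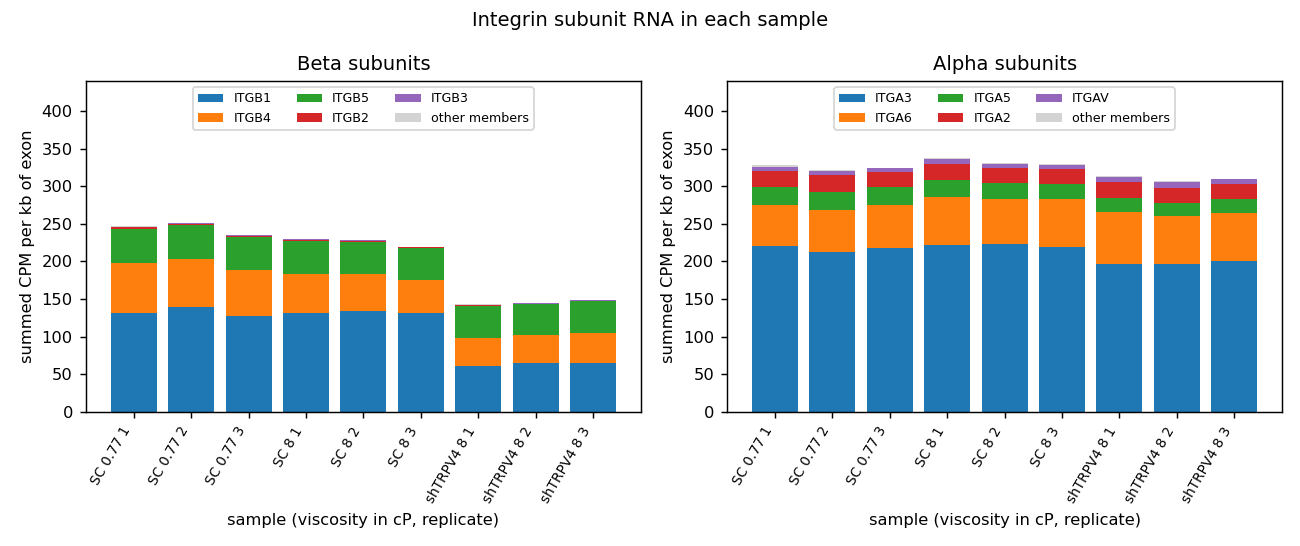
Summed CPM per kilobase of exon in each of the 9 samples, for beta subunits on the left and alpha subunits on the right, with bars from 0 stacked by gene. In the shTRPV4 samples the ITGB1 layer is thinner than in any SC sample, and the beta bars end near 145 while the alpha bars stay near 310.

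Of the 9 proteins that activate integrins and join them to actin, 1 passed with viscosity (TNS3, 11.1% against 19.3% of all genes), 2 with the hairpin (FERMT1 and ACTN4, 22.2% against 20.0%) and 4 against SC at 0.77 cP (44.4% against 42.4%), shares near the background. FERMT1, or kindlin-1, the epithelial kindlin, measured 16.3, 16.7 and 19.8 CPM in SC cells at 0.77 cP, 19.7, 19.6 and 21.8 at 8 cP, and 31.2, 27.0 and 25.6 in shTRPV4 cells. The SC groups overlapped and the shTRPV4 samples were above both, with log2 fold changes of 0.21 for viscosity (SE 0.0851, adjusted p = 0.101 by edgeR), 0.46 for the hairpin (SE 0.0839, adjusted p = 0.00133) and 0.66 against SC at 0.77 cP (SE 0.0848, adjusted p = 1.83e-05). FERMT2, or kindlin-2, its more abundant relative, ranged from 86.2 to 96.5 CPM and passed no test. TNS3, a tensin of fibrillar adhesions, measured 193, 181 and 168 CPM, then 157, 146 and 130, then 137, 165 and 169. It was lower with viscosity by -0.33 (SE 0.0795, adjusted p = 0.011), a call lost without either of 2 samples, and the hairpin's 0.12 did not pass (adjusted p = 0.316), the shTRPV4 samples overlapping both SC groups.

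ACTN4, an actin cross-linker, was 0.16 lower on the log2 scale with the hairpin (1431 to 1488 CPM against 1613 to 1658, adjusted p = 0.017 by edgeR). Its relative ACTN1 was 0.14 higher at 8 cP, in SC as in shTRPV4 cells, than in SC cells at 0.77 cP, which passed for shTRPV4 cells (adjusted p = 0.0279) and not for SC cells (adjusted p = 0.0564). The talins TLN1 and TLN2 and the filamin FLNA passed in neither of the comparisons that change a single factor, with values from -0.04 to 0.17, and TLN2 was 0.27 higher in shTRPV4 cells than in SC cells at 0.77 cP (adjusted p = 0.00862). TNS1 was at 4.53 to 7.72 CPM and passed no test.

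The pseudokinase ILK, its parvin and PINCH partners and the kinases of the plaque showed few differences. FAK (PTK2) was the steadiest of the kinases, at 186 to 200 CPM in every sample and log2 fold changes of -0.01, 0.01 and -0.01. SRC, the kinase that FAK recruits, measured 68.8, 70.4 and 73.4 CPM in shTRPV4 cells against 63.8, 61.2 and 57.1 in SC cells at 8 cP, which do not overlap, and was 0.22 higher (SE 0.0487, adjusted p = 0.00441 by edgeR), whereas viscosity gave -0.05. PTK2B, or PYK2, was lower with viscosity by -0.40 (12.2, 10.7 and 9.52 CPM against 8.50, 8.37 and 7.72, SE 0.109, adjusted p = 0.0196), a call lost without any of 3 samples, and in shTRPV4 cells it was at 8.26, 9.22 and 11.2. The adaptor CRK was 0.14 higher with viscosity (adjusted p = 0.0314), a call lost without any of 5 samples. Paxillin (PXN) and PINCH-1 (LIMS1) passed only between shTRPV4 cells and SC cells at 0.77 cP, at 0.29 (adjusted p = 0.00195) and 0.28 (adjusted p = 0.000866), and p130Cas (BCAR1) and PARVA passed in none. PARVB had 4 to 17 counts and was not tested. ILK had only 47 to 111 counts in a sample, and 2736 of its 3484 exon bases are shared with TAF10 on the other strand, so this value is uncertain as a level of ILK. PXN shares 2032 of its exon bases with PXN-AS1, ACTN4 868 with CAPN12 and TLN2 847 with another gene on the opposite strand, and BCAR1 shares 788 with a gene on its own strand.

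NEXN and ZYX, which bind actin bundles under tension, had a higher mean in each successive group. Nexilin (NEXN) measured 16.7, 18.1 and 19.2 CPM in SC cells at 0.77 cP, 22.0, 23.3 and 27.1 at 8 cP, and 33.7, 30.1 and 29.5 in shTRPV4 cells. No groups overlapped, and the log2 fold changes were 0.42 (SE 0.0807, adjusted p = 0.00313 by edgeR), 0.37 (SE 0.0793, adjusted p = 0.00411) and 0.79 (SE 0.0806, adjusted p = 2.29e-06). Zyxin (ZYX) measured 114, 119 and 130 CPM, then 146, 133 and 148, then 178, 151 and 156. It passed with viscosity (0.23, SE 0.0653, adjusted p = 0.0213, lost without any of 4 samples) and against SC at 0.77 cP (0.42, SE 0.0654, adjusted p = 0.000112), and not with the hairpin (0.18, SE 0.0651, adjusted p = 0.0602). Testin (TES), a LIM protein that binds zyxin, went the other way: it was 0.24 lower in shTRPV4 cells than in SC cells at 0.77 cP (adjusted p = 0.00152), and its values of -0.10 with viscosity and -0.14 with the hairpin did not pass.

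A wider list of 81 other adhesion genes had 69 that could be tested, of which 20 passed with viscosity (7 higher), 25 with the hairpin (10 higher) and 35 against SC at 0.77 cP (13 higher), or 29.0%, 36.2% and 50.7% where 19.3%, 20.0% and 42.4% of all genes did. The 4 smallest adjusted p-values with the hairpin belonged to CD82, CAPNS1, RAB21 and CSRP1. The first 3 are from the 14 tested genes of integrin recycling and inactivation, of which 4 passed, against 11 of 29 scaffold and 10 of 24 signalling genes in the same list. The tetraspanin CD82, which associates with beta-1 integrins, measured 119, 125 and 130 CPM in shTRPV4 cells against 190, 189 and 177 in SC cells at 8 cP (log2 fold change -0.57, adjusted p = 9.37e-07 by edgeR). CAPNS1, the small subunit of the calpains that cut talin, was lower by -0.52 (adjusted p = 1.51e-06), RAB21, which carries beta-1 integrins in endosomes, by -0.47 (adjusted p = 7.54e-06), and the LIM protein CSRP1 by -0.33 (adjusted p = 4.28e-05). With viscosity the smallest adjusted p-values belonged to kindlin-3 (FERMT3, -0.84, 0.000407), supervillin (SVIL, -0.23, 0.00302), the endocytic adaptor DAB2 (-0.30, 0.00467) and the kinase PAK2 (0.21, 0.00479). The p130Cas relative NEDD9 was 1.00 lower on the log2 scale in shTRPV4 cells than in SC cells at 0.77 cP (adjusted p = 4.16e-07), as were CD82 by 0.68, CAPNS1 by 0.60 and CSRP1 by 0.48. As for the members, the count with viscosity hung on single samples, at 7 without replicate 1 of SC at 0.77 cP or replicate 3 of SC at 8 cP.

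Of 19 integrin ligands other than collagens and laminins, 14 could be tested, and those that passed were mostly lower. With viscosity 5 passed (35.7%, all lower), with the hairpin 9 (64.3%, 6 lower) and against SC at 0.77 cP 9 (64.3%, 7 lower), where 19.3%, 20.0% and 42.4% of all genes did. Fibronectin (FN1), the ligand of alpha-5 beta-1, measured 1394, 1277 and 1018 CPM in SC cells at 0.77 cP, 973, 858 and 852 at 8 cP, and 720, 744 and 792 in shTRPV4 cells. Its log2 fold change was -0.46 with viscosity (adjusted p = 0.00295 by edgeR), -0.25 with the hairpin (adjusted p = 0.056) and -0.71 for both (adjusted p = 1.38e-05). VCAM1, at 10.1, 8.50 and 6.83 CPM and then 3.71, 3.47 and 2.68, was 1.36 lower with viscosity (adjusted p = 0.000244 by edgeR). Between shTRPV4 cells and SC cells at 0.77 cP the tested ligands ranged from -0.892 to 1.26 on the log2 scale. VCAM1 was thus less reduced in shTRPV4 cells than in SC cells at 8 cP. TGFB1, whose latent form binds alpha-V integrins, was 0.30 lower with viscosity (adjusted p = 0.00328). Vitronectin (VTN) was at 0.101 to 1.54 CPM, and was lower with viscosity (log2 fold change -1.66, adjusted p = 0.0109) and higher with the hairpin (1.99, adjusted p = 0.00243), with 0.33 between shTRPV4 cells and SC cells at 0.77 cP (adjusted p = 0.486). With the hairpin MFGE8 (-0.28, adjusted p = 0.000224), LTBP1 (-0.34, adjusted p = 0.00137) and TGFBI (-0.34, adjusted p = 0.00143) were lower, and thrombospondin-1 (THBS1), a matrix glycoprotein bound by several integrins, was 0.30 higher (adjusted p = 0.00191). The count for viscosity was 3 without replicate 1 of SC at 0.77 cP.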

How the data were processed

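RNA of MDA-MB-231 cells was sequenced from stranded poly(A) libraries of 9 samples. According to the study's methods and processing notes, reads were mapped to GRCh38.p13 with HISAT2 2.2.1, and the authors deposited whole-number counts per Ensembl gene from HTSeq 0.13.5, without normalization. The strand option of the counting is not given in the sources used here. Totals per sample ranged from 64571681 to 103518036, and the common biological coefficient of variation was 0.0633. Groups came from the sample titles and characteristics.

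Symbols, exon lengths and overlaps came from GENCODE 44 (60463 of 60664 IDs matched). Counts were scaled by TMM, filtered by filterByExpr and tested with edgeR 4.0.16 (R 4.3.3), with 1 coefficient per group, all 9 samples and Benjamini-Hochberg adjustment over 18264 genes. Each SE of a log2 fold change, in the text and in the figure, was derived from the test. It is the absolute log2 fold change divided by the square root of the F statistic. The model was also run on counts simulated with the spread it had itself estimated here. Such a run cannot show where the real samples depart from the model. The members and gene lists were chosen with earlier results of these data known. By rule, values per sample were given for the 6 members of smallest adjusted p in each comparison, those with an adjusted p under 0.05 and a log2 fold change of at least 0.5, and TRPV4. The leading 5 of each class by level were named with group means, and 4 genes per further list and comparison were named. SRC, PTK2B, ZYX and ITGA7 were given per sample after their values were seen. Alternatives were DESeq2 1.42.0, upper quartile scaling, 2 other filters, the 6 samples compared alone, a replicate block, each sample left out, a fold threshold and transcript length.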

Additional observations from a re-analysis of the deposited data

How the results depend on the processing

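For the 35 tested members and TRPV4, no value that passed a test turned its direction under any alternative run. For the other adhesion genes and the ligands only the counts of calls were recomputed. For the 35 tested members 1575 values were recomputed, of which 48 lost and 35 gained a call (43 and 18 of these on leaving out a sample). TRPV4 gave no value with the filter of 10 counts in every sample. With a log2 fold change of at least 0.5 required as well, the members passing were 2 with viscosity, 4 with the hairpin and 7 when shTRPV4 was set against SC at 0.77 cP, from 12, 12 and 20, as this rule asks for more. Leaving out each sample in turn gave 4 to 17, 11 to 15 and 17 to 21 members. The low values for viscosity were 4 and 7 without replicates 1 and 2 of SC at 0.77 cP and 5 without replicate 3 of SC at 8 cP. For the 81 other adhesion genes the range was 7 to 24 with viscosity (from 20), with 11 without replicate 2 of SC at 0.77 cP and 13 without replicate 1 of SC at 8 cP, 19 to 27 with the hairpin (from 25) and 29 to 38 in the third comparison (from 35), and for the integrin ligands 3 to 7 (from 5), 7 to 11 (from 9) and 9 to 10 (from 9). With the longest transcript as gene length, the alpha sums were 524, 536 and 496 CPM per kilobase and the beta sums 487, 465 and 272 for SC at 0.77 cP, SC at 8 cP and shTRPV4, since that length is shorter. Samples with the same replicate number did not deviate together (r of deviations from -0.0546 to 0.0904, against -0.106 to 0.115 for different numbers), so the numbers were not taken as a pairing. With them as a replicate block, 13, 13 and 19 members passed, with 2 single calls gained (ACTN1 with viscosity, TES with the hairpin) and 1 lost (TNS3 in the third comparison).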
